A study of Mus musculus with 12 samples.

Results

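The mitochondrial chromosome of the mouse carries its own small set of genes, and this report describes their RNA in cultured myotubes, muscle cells with many nuclei that arise by fusion of myoblasts. The members were all genes of the deposited table whose symbol in GENCODE M21 begins with mt-. There were 15 of them among 20201 genes: all 13 protein genes and both ribosomal RNA genes of that chromosome. Its 22 transfer RNA genes were not analysed here. The myotubes were grown from primary myoblasts of Bmal1-floxed mice, so every library, controls included, comes from cells with the floxed allele. Cultures were given adenovirus, either carrying Cre recombinase, an enzyme that cuts out the floxed part of Bmal1, a circadian clock gene, or empty as a control, for 48 hours, and then spent 6 hours at 21% or 1% oxygen. The labels give 6 libraries as wildtype at 21% oxygen, titled Myotube1 to Myotube3 and Myotube7 to Myotube9. They give the other 6 as Bmal1 knockout at 1% oxygen, titled Myotube4 to Myotube6 and Myotube10 to Myotube12. Genotype and oxygen therefore cannot be told apart from the labels. No label names the animal or the culture of a library, so a p-value here reflects spread among libraries that may be technical repeats.

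Transcription of the mitochondrial chromosome runs along each strand as a long precursor, which is cut, mostly at the transfer RNA genes, into ribosomal, messenger and transfer RNAs. The ribosomal RNAs build the mitochondrial ribosome, and the protein genes encode core subunits of respiratory complexes I, III and IV and of ATP synthase, the machines that supply a muscle fibre with ATP. The nuclear genome also holds pieces of mitochondrial DNA that were inserted during evolution, and a recent insertion can be nearly identical in sequence to the genes it came from.

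Whole reads could be recovered from the normalized counts and came to 6376584 to 12463339 per library. A set of 8 genes, each with 1% or more of the reads of some library and both mitochondrial ribosomal RNA genes among them, held 49.2% to 65.4%. Myotube2 stood apart, with 29.6% of genes at 0 against 13.03% to 21.9% in the other libraries. Arntl, the symbol under which Bmal1 is listed, ran from 133 to 179 normalized counts across the wildtype label and from 41.7 to 48.6 across the knockout label, with no overlap. The oxygen label was not matched: Egln3, a gene induced by low oxygen, lay at 194 to 270 in Myotube1 to Myotube6 and at 2036 to 2258 in Myotube7 to Myotube12. Libraries are therefore called by their labels and titles, and no difference is put down to oxygen. The summed myotube markers were 17987 to 22205 in the libraries labelled wildtype and 29920 to 33239 in those labelled knockout, but single markers moved both ways. Acta1, Des, Ckm, Tnnt1, Tnnt3 and Mymk were higher in every library labelled knockout than in any labelled wildtype, at 1.97 to 2.93 times the mean. Myod1 was lower in every one, at 0.535 times, and Myog (0.690 times), Ttn (0.781 times), Myh3, Myh8 and Mymx overlapped between the labels. The summed endothelial markers were 827 to 962 and 1130 to 1403. Pecam1 and Cdh5 were well above 0 in every library and separated the labels, while Kdr and Tek overlapped. Fibroblast markers summed to 1736 to 2114 and 1684 to 1858, macrophage and leukocyte markers to 35.4 to 71.2 and 50.7 to 87.7, with Ptprc and Adgre1 at or near 0. Adipocyte markers came to at most 1.76 and glial markers to at most 34.9. The part of these marker differences in the results below was not tested. In bulk RNA, fewer cells of a type and less RNA per cell cannot be told apart.

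Of the 15 genes, 7 have a close copy in the nuclear genome that is itself a row of the table, and the genes with erratic values are among these. Among annotated transcripts, 8 unprocessed pseudogenes matched a member over at least 100 bases at 97% identity or more. Of these, 7 lie side by side on the minus strand of chromosome 1 (GRCm38, which is mm10), and the other, Gm13340, lies on chromosome 2. Gm28661 (chr1:24614885-24615565) matched 681 of the 684 bases of mt-Co2 without a difference, Gm10925 (chr1:24613974-24614651) 678 of the 681 of mt-Atp6, and Gm28437 (chr1:24613189-24613971) 783 of the 784 of mt-Co3. The 3′ ends of these pairs, from GENCODE M21, are shown 5′ to 3′ because they hold all that separates the annotated transcripts. Capitals mark the bases that lie past the annotated end of the copy. The nuclear genome past that end was not searched, so these bases are not shown to differ between gene and copy.
mt-Co2, chrM:7637-7696, plus strand: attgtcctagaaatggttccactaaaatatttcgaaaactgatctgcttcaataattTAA
Gm28661, chr1:24614885-24614941, minus strand: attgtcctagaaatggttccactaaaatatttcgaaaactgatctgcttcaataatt
mt-Co3, chrM:9333-9390, plus strand: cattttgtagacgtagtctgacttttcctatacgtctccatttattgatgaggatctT
Gm28437, chr1:24613189-24613245, minus strand: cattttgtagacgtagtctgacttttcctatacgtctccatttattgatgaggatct
mt-Atp6, chrM:8548-8607, plus strand: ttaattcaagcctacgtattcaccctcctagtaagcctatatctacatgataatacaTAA
Gm10925, chr1:24613974-24614030, minus strand: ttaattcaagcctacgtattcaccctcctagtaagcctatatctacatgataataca
A read inside the shared stretch has no base that assigns it to either row. mt-Nd3 and Gm28438 (chr1:24612775-24613119) differ by a single base over 345, T3C, counted from 1 at the first base of mt-Nd3 and shown in capitals.
mt-Nd3, chrM:9459-9491, plus strand: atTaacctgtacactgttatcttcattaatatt
Gm28438, chr1:24613087-24613119, minus strand: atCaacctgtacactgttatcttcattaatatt
Gm10222 (chr1:24612407-24612700) matched 294 of the 297 bases of mt-Nd4l without a difference, and Gm28439 (chr1:24611535-24612410) the first 876 of the 1378 bases of mt-Nd4. Gm29216 (chr1:24615706-24616197) matched the last 483 of the 1545 bases of mt-Co1 with a single difference, A1066T, and Gm13340 (chr2:22588103-22589647) matched all 1545 at 97.6% identity.

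Some members also share bases with each other on the chromosome. mt-Atp8 and mt-Atp6, which encode a pair of ATP synthase subunits, overlap by 43 bases, and mt-Nd4l and mt-Nd4, which encode complex I subunits, by 7. Both overlaps are shown in capitals with 20 bases on each side, plus strand, because their bases belong to both genes. Not shown are base 8607, shared by mt-Atp6 and mt-Co3, and chrM:13552-13565, shared by mt-Nd5 and mt-Nd6 on opposite strands.
mt-Atp8 and mt-Atp6, chrM:7907-7989: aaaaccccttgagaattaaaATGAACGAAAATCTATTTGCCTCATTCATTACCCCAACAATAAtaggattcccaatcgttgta
mt-Nd4l and mt-Nd4, chrM:10147-10193: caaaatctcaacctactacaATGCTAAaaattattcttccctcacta
In each, the capitals begin with ATG, the start codon of the second gene.

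For mt-Co2, a core subunit of complex IV (cytochrome c oxidase), nearly all reads were placed on the nuclear copy. mt-Co2 was at 0 in Myotube1 to Myotube3, at 409, 632 and 154 normalized counts in Myotube4 to Myotube6, at 379, 473 and 121 in Myotube7 to Myotube9, and at 671, 388 and 488 in Myotube10 to Myotube12. A count of 0 allows up to 3 reads, which is 2.64, 4.65 and 2.80 normalized counts in Myotube1 to Myotube3. Set at those limits, the mt-Co2 row was at least 118.5-fold higher in Myotube4 to Myotube6 and at least 96.5-fold higher in Myotube7 to Myotube9. These limits cover counting error alone. They do not cover how reads were divided between mt-Co2 and Gm28661, so they give no lower limit for mt-Co2 RNA. The copy Gm28661 lay at 10087, 8041 and 10871 in Myotube1 to Myotube3, where mt-Co2 was at 0. The sum of mt-Co2 and Gm28661 was 10087, 8041 and 10871 normalized counts in Myotube1 to Myotube3, 20084, 22223 and 21459 in Myotube4 to Myotube6, 11569, 11103 and 12066 in Myotube7 to Myotube9, and 21706, 19145 and 21266 in Myotube10 to Myotube12. The sums fall into a low range in all 6 libraries labelled wildtype and a high range in all 6 labelled knockout, with no overlap. The mean sums of Myotube4 to Myotube6 and of Myotube7 to Myotube9 were 2.20 and 1.20 times that of Myotube1 to Myotube3. The mt-Co2 row held 0% of the pair in Myotube1 to Myotube3 and 0.720% to 4.26% in the other libraries.

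mt-Co3, another core subunit of complex IV, was the most erratic member. It lay at 511, 0 and 503 normalized counts in Myotube1 to Myotube3, at 512, 2113 and 996 in Myotube4 to Myotube6, at 1981, 410 and 0.714 in Myotube7 to Myotube9, and at 2067, 1162 and 552 in Myotube10 to Myotube12. Replicates of the same block thus spanned from a single read in Myotube9 to 1981 normalized counts in Myotube7, and the coefficient of variation within blocks averaged 86.6%. Summed with Gm28437, it was 11775, 9574 and 12197 in Myotube1 to Myotube3, 22301, 23818 and 22043 in Myotube4 to Myotube6, 8940, 8614 and 8797 in Myotube7 to Myotube9, and 16502, 15588 and 16587 in Myotube10 to Myotube12. On the sums the coefficient of variation averaged 5.52%, and all 6 libraries labelled knockout lay above all 6 labelled wildtype. The mt-Co3 row held between 0% and 22.2% of the pair.

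The other genes with copies varied in the same manner, in different degrees. mt-Atp6, the proton channel subunit of ATP synthase, held 1.89% to 10.7% of its pair, and its coefficient of variation averaged 35.7% as deposited and 11.8% when summed with Gm10925. mt-Nd3, a small complex I subunit, held 13.3% to 100% of its pair, the latter in Myotube2, where Gm28438 was at 0. Its coefficient of variation averaged 39.5% as deposited and 18.2% summed. mt-Nd4l, also a small complex I subunit, held 13.2% to 84.7%, with 44.1% as deposited and 13% summed. mt-Co1, the catalytic subunit of complex IV, kept 92.8% to 96.6% of its sum with Gm29216 and Gm13340, and mt-Nd4, a proton-pumping subunit of complex I, at least 99.7%; their coefficients of variation averaged 7.999% and 9.70% as deposited. The 8 members with no copy in the table ranged from 7.56% for mt-Rnr2 to 21.1% for mt-Nd6.

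**Figure D1:**
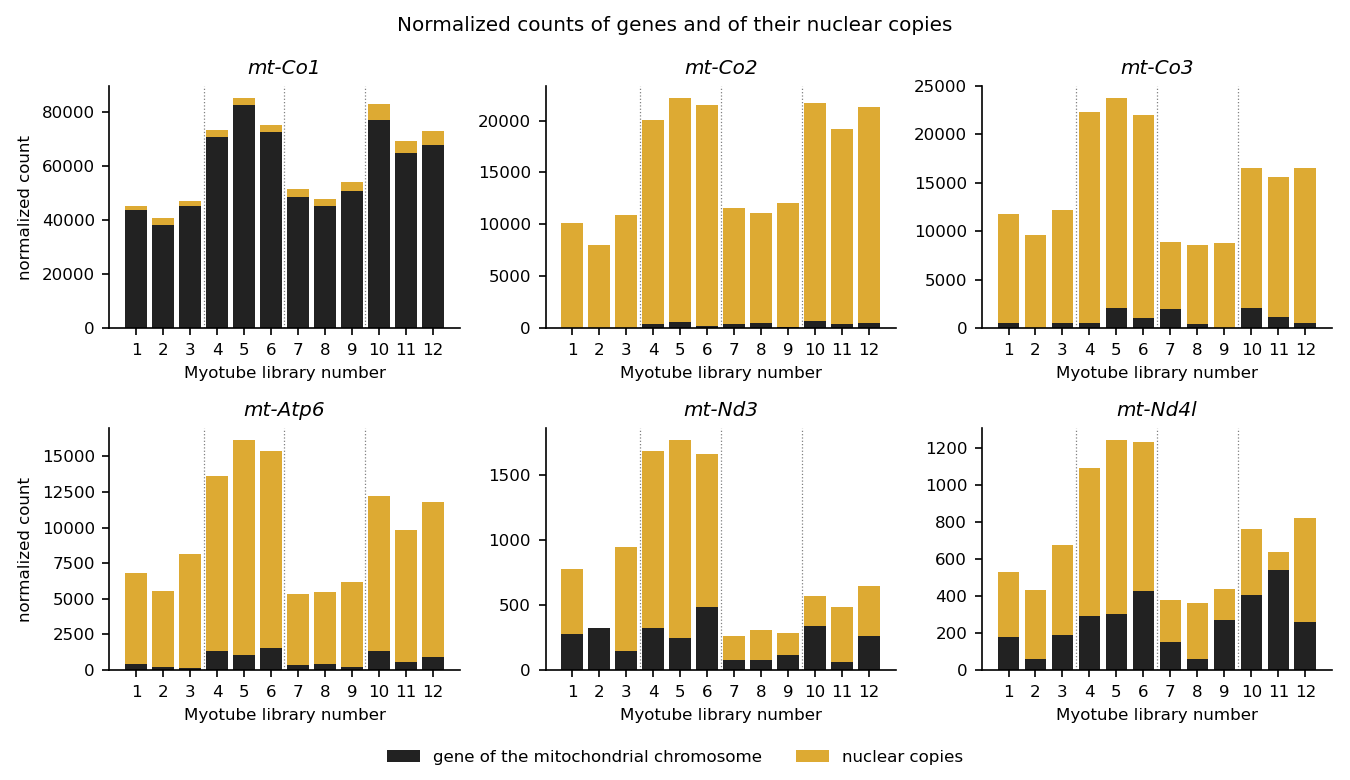
Bars give normalized counts (vertical axis) in Myotube libraries 1 to 12 (horizontal axis) for 6 genes of the mitochondrial chromosome (black) with their nuclear copies stacked on top (yellow); dotted lines separate the 4 blocks of 3 libraries. For mt-Co2, mt-Co3 and mt-Atp6 the copies hold most of each bar, and for mt-Nd3 and mt-Nd4l the split changes from library to library while the height of the bars follows the blocks.

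Since most of the sequence of a gene and its copy gives no base to split them by, results for these 7 genes are given both as deposited and as sums. In the sums, reads that truly come from the nuclear copies, if there are any, are counted with the gene.

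The ribosomal RNA genes were the most abundant members. mt-Rnr1, the RNA of the small mitochondrial ribosomal subunit (chrM:70-1024), lay at 375224, 250790 and 431710 normalized counts in Myotube1 to Myotube3, at 535652, 444908 and 610751 in Myotube4 to Myotube6, at 436808, 440524 and 533580 in Myotube7 to Myotube9, and at 713781, 607643 and 664950 in Myotube10 to Myotube12. The labelled groups overlap over all 12 libraries, because Myotube9 lies above Myotube5, but not within Myotube1 to Myotube6 or within Myotube7 to Myotube12. mt-Rnr2, the RNA of the large subunit (chrM:1094-2675), lay at 878374, 645778 and 930410 in Myotube1 to Myotube3, at 1267917, 1345704 and 1305315 in Myotube4 to Myotube6, at 1118539, 1065904 and 1181687 in Myotube7 to Myotube9, and at 1459110, 1368499 and 1455257 in Myotube10 to Myotube12. For mt-Rnr2 all 6 libraries labelled knockout lay above all 6 labelled wildtype. Myotube2 was the lowest library for both genes.

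The 6 protein genes without a copy of at least 100 bases in the table followed the blocks closely. Of these, mt-Atp8 shares its last 43 bases with mt-Atp6, and so also with the start of Gm10925. mt-Nd1, a complex I subunit at the joint of its arms (chrM:2751-3707), lay at 6143, 4192 and 6618 normalized counts in Myotube1 to Myotube3, at 11014, 12450 and 12180 in Myotube4 to Myotube6, at 2916, 3104 and 3253 in Myotube7 to Myotube9, and at 6791, 5218 and 6113 in Myotube10 to Myotube12. mt-Nd2, a proton-pumping complex I subunit (chrM:3914-4951), lay at 3153, 2687 and 3504 in Myotube1 to Myotube3, at 5804, 6747 and 6639 in Myotube4 to Myotube6, at 1516, 1631 and 1877 in Myotube7 to Myotube9, and at 3537, 2849 and 3374 in Myotube10 to Myotube12. For both genes the blocks separate without overlap within each label, and Myotube1 to Myotube3 overlap with Myotube10 to Myotube12. mt-Nd5, another proton-pumping subunit (chrM:11742-13565), lay at 4171, 4632 and 4762 in Myotube1 to Myotube3, at 8360, 9685 and 9583 in Myotube4 to Myotube6, at 3137, 3229 and 3973 in Myotube7 to Myotube9, and at 7688, 6011 and 6986 in Myotube10 to Myotube12. Here the labels separate all 12 libraries, since the lowest library labelled knockout, Myotube11, lies above the highest labelled wildtype, Myotube3.

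mt-Nd6 (chrM:13552-14070), a complex I subunit, is the only protein gene on the minus strand of the annotation. It lay at 315, 300.4 and 436 normalized counts in Myotube1 to Myotube3, at 471, 566 and 659 in Myotube4 to Myotube6, at 384, 376 and 599 in Myotube7 to Myotube9, and at 745, 696 and 977 in Myotube10 to Myotube12. Unlike mt-Nd1 and mt-Nd2, its highest library is in the last block. mt-Cytb, the central subunit of complex III (chrM:14145-15288), lay at 5779, 5015 and 6490 in Myotube1 to Myotube3, at 12229, 13864 and 13386 in Myotube4 to Myotube6, at 4753, 4560 and 5440 in Myotube7 to Myotube9, and at 11774, 9472 and 10698 in Myotube10 to Myotube12. mt-Atp8, a small subunit of ATP synthase (chrM:7766-7969), lay at 942, 632 and 1052 in Myotube1 to Myotube3, at 1820, 2282 and 1982 in Myotube4 to Myotube6, at 676, 647 and 707 in Myotube7 to Myotube9, and at 1443, 1265 and 1519 in Myotube10 to Myotube12. For mt-Cytb and mt-Atp8 all 6 libraries labelled knockout lay above all 6 labelled wildtype, while for mt-Nd6 the labels overlap.

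**Figure D2:**
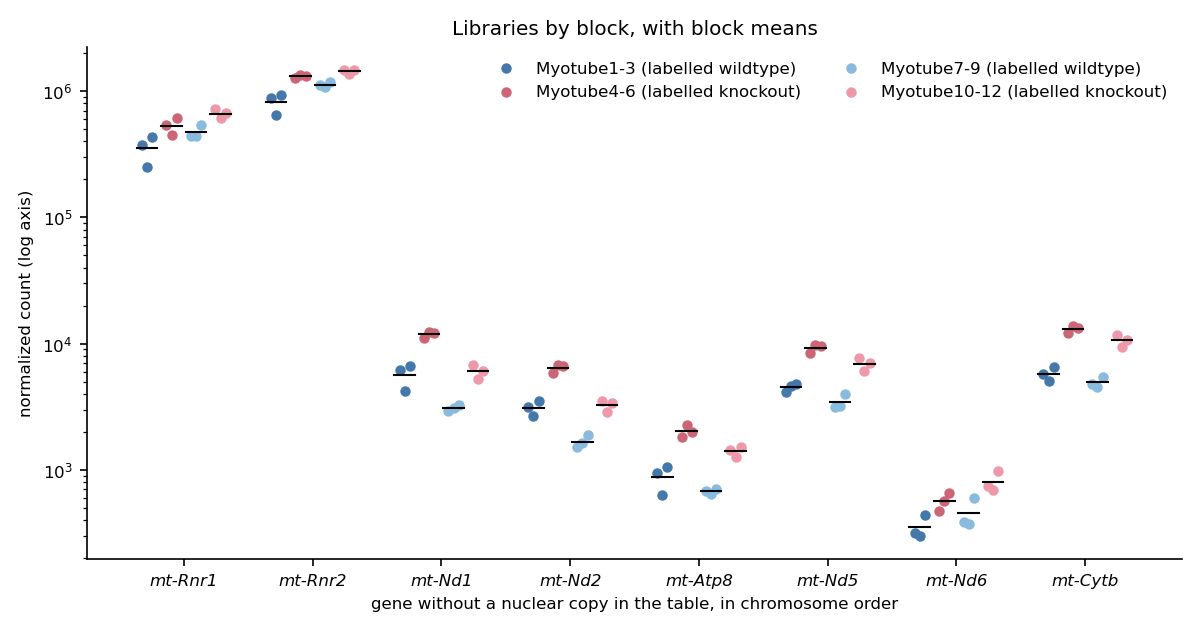
Points are the 12 libraries, coloured by block, for the 8 genes without a nuclear copy in the table (horizontal axis, chromosome order), as normalized counts on a log axis; black lines are block means of 3 libraries. Labelled knockout blocks (reds) lie above the labelled wildtype blocks (blues) of the same title set for all 8 genes, and mt-Nd1 and mt-Nd2 drop from the first 6 titles to the last 6 while mt-Nd6 does not.

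RNA of the mitochondrial chromosome was higher in the libraries labelled Bmal1 knockout. By limma on log2(normalized count + 1), 12 of the 15 members were higher at an adjusted p under 0.05, against 10.2% of the 12553 genes tested, and none was lower at any unadjusted p under 0.05, against 9.07% of genes tested lower at an adjusted p under 0.05. edgeR and DESeq2 on the recovered reads also called 12 higher. The median log2 difference was 1.03 over the 15 members and -0.0015 over all genes tested. Summed with their copies, 14 of 15 were higher, and 12 of the 14 kept the call whichever library was left out. In 7 of the 15 members as deposited, all 6 libraries labelled knockout lay above all 6 labelled wildtype, against 7.07% of the genes tested.

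By complex, on the sums, the log2 differences ran from 0.52 to 1.21. Of the 7 complex I genes, 6 were higher, with mt-Nd1 at 1.03 (SE 0.27, adjusted p = 0.0160), mt-Nd4 at 1.05 (SE 0.13) and mt-Nd6 at the low end at 0.77 (SE 0.18, adjusted p = 0.00957). mt-Nd3 came to 1.21 (SE 0.42), with an adjusted p of 0.0610. mt-Cytb of complex III rose by 1.16 (SE 0.11, adjusted p = 8.58e-06). The complex IV genes rose by 0.68 for mt-Co1 (SE 0.08), 0.99 for mt-Co2 (SE 0.09) and 0.96 for mt-Co3 (SE 0.13). The ATP synthase genes rose by 1.15 for mt-Atp8 (SE 0.16) and 1.07 for mt-Atp6 (SE 0.13). The ribosomal RNAs had the smallest differences, 0.56 for mt-Rnr1 (SE 0.17, adjusted p = 0.0386) and 0.52 for mt-Rnr2 (SE 0.15, adjusted p = 0.0248).

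As deposited, the genes with copies gave other values. mt-Co2 came to 4.63 (SE 1.61, adjusted p = 0.0603) and mt-Co3 to 3.66 (SE 1.69, adjusted p = 0.156), and neither passed. mt-Co2 passed with the title set as a covariate (4.63, adjusted p = 0.00546) and in a 2-sided exact permutation test of its values alone (unadjusted p = 0.0238), and by limma without Myotube7 (5.53, adjusted p = 0.0267), without Myotube8 (5.60, adjusted p = 0.0224) or without Myotube9 (5.21, adjusted p = 0.0498). mt-Nd3 came to 0.78 (adjusted p = 0.293), and passed without Myotube11 (1.16, adjusted p = 0.0472). mt-Atp6 rose by 1.85 (SE 0.29) and mt-Nd4l by 1.48 (SE 0.36), both more than their sums, at 1.07 and 1.03. The call on mt-Rnr1 was lost without any of 8 libraries (Myotube1, Myotube3, Myotube4, Myotube6, Myotube7, Myotube10, Myotube11 or Myotube12; adjusted p = 0.0514 to 0.0811) and that on mt-Rnr2 without Myotube1 (adjusted p = 0.0576). With values rescaled to the total of nuclear genes, which moved the median of all genes to -0.15, mt-Rnr1 (0.40, adjusted p = 0.0735) and mt-Nd2 (0.85, adjusted p = 0.0530) did not pass. Under quantile normalization mt-Rnr2 came to -0.22 (limma adjusted p = 0.5275). That method gives every library the same value at each rank. For a gene as abundant as mt-Rnr2 the result therefore shows little beyond its rank.

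The contrast of the labels was then taken inside each set of titles. Between Myotube1 to Myotube3 and Myotube4 to Myotube6, 12 of 15 members were higher in the labelled knockout, against 10.8% of genes tested, and all 15 were on the sums. Between Myotube7 to Myotube9 and Myotube10 to Myotube12, 9 were higher, against 8.84%, and 13 on the sums. On the sums the smallest of the protein differences in Myotube1 to Myotube6 was 0.70 for mt-Nd6 (SE 0.20) and the largest 1.46 for mt-Nd3 (SE 0.28). In Myotube7 to Myotube12 they ran from 0.55 for mt-Co1 (SE 0.09) to 1.11 for mt-Cytb (SE 0.11). The ribosomal RNAs passed within Myotube1 to Myotube6 (0.61 for mt-Rnr1 and 0.69 for mt-Rnr2; adjusted p = 0.0351 and 0.0039) and did not within Myotube7 to Myotube12 (0.50 and 0.35; adjusted p = 0.0867 and 0.110). Without Myotube2, the latter 2 passed (adjusted p = 0.00996 and 0.00969). Within Myotube1 to Myotube6, mt-Rnr1 was lost without Myotube2, Myotube4, Myotube6 or Myotube12 (adjusted p = 0.0511 to 0.122) and mt-Nd6 without Myotube1, Myotube2, Myotube5 or Myotube6 (adjusted p = 0.0712 to 0.114). Within Myotube7 to Myotube12, mt-Nd3 was lost without any of those 6 libraries (adjusted p = 0.0535 to 0.114) and mt-Nd6 without Myotube7, Myotube8 or Myotube12 (adjusted p = 0.0569 to 0.0620). The other protein genes kept their call on the sums within both sets whichever library was left out.

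Whether the contrast of the labels differed between the title sets was tested directly. As deposited, a single gene of the 12553 passed, 0.00797%, and it was mt-Co2: its difference was 8.42 (SE 0.51) in the first set and 0.84 (SE 0.51) in the second, so that the second minus the first was -7.58 (SE 0.72, adjusted p = 0.00170). Summed with Gm28661, the values were 1.15 and 0.84 and the difference between them -0.31 (SE 0.14, adjusted p = 0.581). On the sums no member passed by limma, and 1 of 15, mt-Co2, had an unadjusted p under 0.05. As deposited, edgeR called no member and DESeq2 called 1. Over the 15 members the log2 differences of the sets, which share no library, correlated with Pearson's r of 0.78 and Spearman's rho of 0.70 on the sums, a description across genes that are transcribed together and are not independent replicates.

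**Figure D3:**
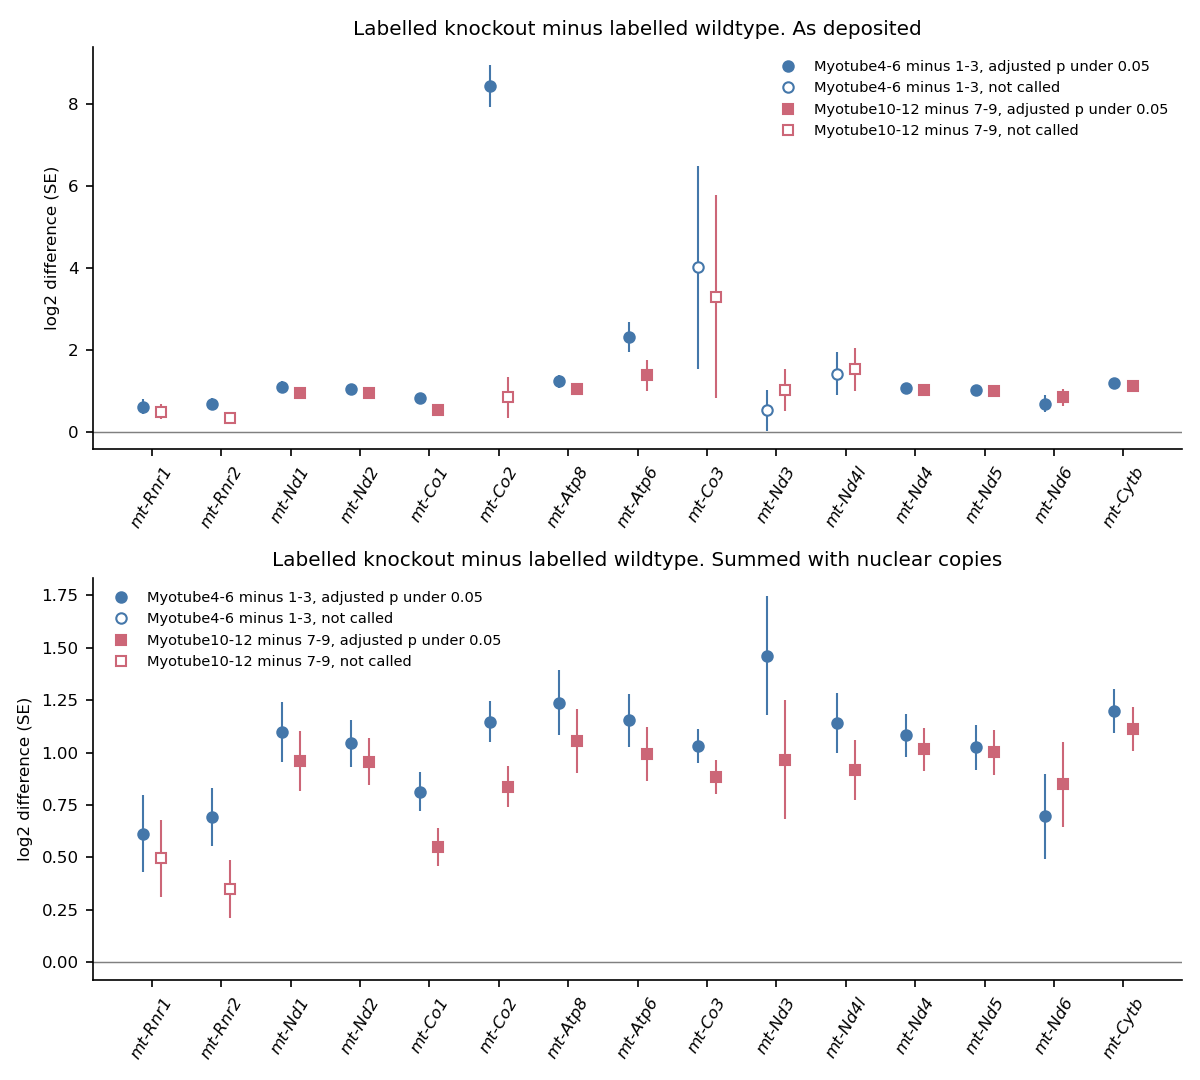
Log2 differences, labelled knockout minus labelled wildtype (vertical axis, bars give the standard error), for the 15 genes in chromosome order, within Myotube1 to Myotube6 (blue circles) and Myotube7 to Myotube12 (red squares), as deposited (top) and summed with nuclear copies (bottom, another scale); filled symbols passed limma's adjusted p of 0.05. The value of 8.42 for mt-Co2 as deposited becomes 1.15 on the sums, and every point of the lower panel lies above 0.

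Blocks with the same label were compared next. The labels tell them apart by title number alone, but Egln3 and Slc2a1, both induced by low oxygen, were higher in the later titles for both labels, Slc2a1 at 475 to 588 in Myotube1 to Myotube6 and 3168 to 3554 in Myotube7 to Myotube12. What sets the blocks apart was not tested. Apart from mt-Nd6, the complex I messenger RNAs of the mitochondrial chromosome were lower in the later titles for both labels on the sums. As deposited, mt-Nd3 (-1.42 and -0.92) and mt-Nd4l (0.09 and 0.20) did not pass in either label. On the sums, 6 of the 7 complex I genes were lower in Myotube7 to Myotube9 than in Myotube1 to Myotube3, and the same 6 were lower in Myotube10 to Myotube12 than in Myotube4 to Myotube6. As deposited, 6.96% and 7.89% of all genes tested were lower in these comparisons. In the labelled wildtype, the call on mt-Nd4l was lost without any of 9 libraries (Myotube1, Myotube3 to Myotube8, Myotube10 or Myotube12; adjusted p = 0.0506 to 0.146), and that on mt-Nd3 without Myotube1, Myotube3, Myotube7 or Myotube9 (adjusted p = 0.0523 to 0.0654). mt-Nd1 fell by 0.84 and 0.98 (SE 0.14 each), to 0.547 and 0.508 of the earlier mean. mt-Nd2 fell by 0.89 and 0.98 (SE 0.11 each), to 0.538 and 0.509. mt-Nd3 fell by 1.10 and 1.60 (SE 0.28 each) on the sums, to 0.423 and 0.331 of the earlier mean. mt-Nd4 fell by 0.36 and 0.43, mt-Nd5 by 0.40 and 0.42, and mt-Nd4l by 0.46 and 0.69.

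The other members followed smaller or opposite differences. mt-Nd6, alone among the complex I genes, came to 0.35 and 0.51 (SE 0.20 each; adjusted p = 0.261 and 0.104) and did not pass. mt-Co3 fell by 0.34 and 0.49 (SE 0.08 each), whereas the other complex IV genes did not pass, with 0.21 and -0.06 for mt-Co1 and 0.27 and -0.04 for mt-Co2. mt-Atp8 came to -0.34 and -0.52 and mt-Atp6 to -0.26 and -0.42, and both passed in the labelled knockout alone; that the labels differ was not shown (adjusted p = 0.791 and 0.781 for the difference). mt-Cytb came to -0.22 and -0.31 (adjusted p = 0.169 and 0.0584). mt-Rnr1 came to 0.45 and 0.33 and did not pass, and mt-Rnr2 to 0.47 (adjusted p = 0.0334) and 0.13 (adjusted p = 0.585).

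As deposited, 2 members were higher in Myotube7 to Myotube9, mt-Co2 and mt-Rnr2, against 9.79% of genes tested, and 4 were lower, against 6.96%. In the labelled knockout 5 were lower in the later block, against 7.89%, and none was higher, against 11.2%; limma gave 1 higher at an unadjusted p under 0.05, and edgeR and DESeq2 called none higher. On the sums 8 and 9 members passed. Of these, mt-Nd1, mt-Nd2 and mt-Co3 kept their call in both labels whichever library was left out. mt-Nd4, mt-Nd5 and mt-Rnr2 lost theirs in the labelled wildtype without Myotube7 or without Myotube8, mt-Nd4 and mt-Nd5 also without Myotube3 and mt-Rnr2 without Myotube9, Myotube11 or Myotube12, and without Myotube7 3 of the 8 calls were left and without Myotube8 4. In the labelled knockout 5 of the 9 were left without Myotube11. There mt-Atp8 lost its call without Myotube5, Myotube6, Myotube10 or Myotube11 (limma adjusted p = 0.0670 to 0.124). mt-Atp6 lost its call without Myotube5, Myotube6, Myotube8, Myotube11 or Myotube12 (0.0512 to 0.147). mt-Nd5 did so without Myotube5, Myotube6 or Myotube11 (0.0564 to 0.06845), and mt-Nd4 without Myotube11 (0.0520). Without Myotube2, mt-Atp8 (-0.56, adjusted p = 0.00147), mt-Atp6 (-0.40, adjusted p = 0.0204) and mt-Cytb (-0.32, adjusted p = 0.0377) passed in the labelled wildtype as well. Over the 15 members the sums gave differences of the same sign in both labels for 13, with Pearson's r of 0.96 and Spearman's rho of 0.95 across genes.

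**Figure D4:**
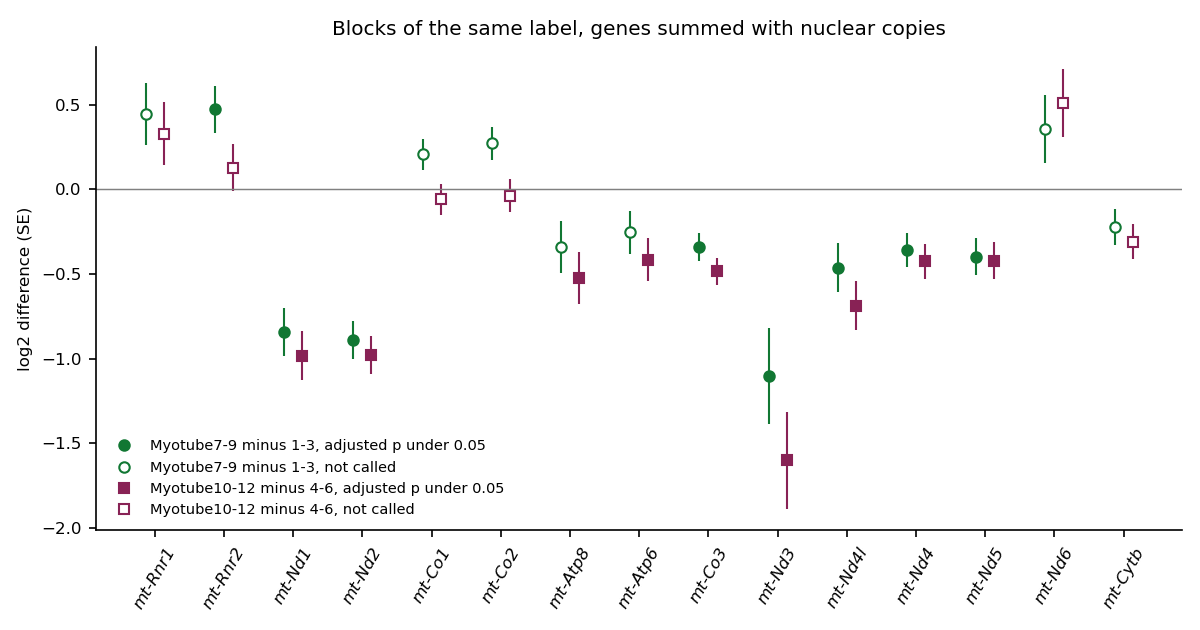
Log2 differences between blocks of the same label (vertical axis, bars give the standard error) for the 15 genes in chromosome order, summed with nuclear copies: Myotube7 to Myotube9 minus Myotube1 to Myotube3 (green circles) and Myotube10 to Myotube12 minus Myotube4 to Myotube6 (purple squares); filled symbols passed limma's adjusted p of 0.05. mt-Nd1, mt-Nd2 and mt-Nd3 lie lowest, from -0.84 to -1.60, and mt-Nd6 lies above 0 in both.

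As shares of all reads, the ribosomal RNA and protein genes had different patterns over the blocks. The ribosomal RNA genes took 9.08% to 13.1% of reads in Myotube1 to Myotube3 and 16.7% to 20.3% in the other 9 libraries. Within Myotube7 to Myotube12 the direction of the ribosomal RNA difference depended on the scaling. The mean share was 19.53% in Myotube7 to Myotube9 and 18.11% in Myotube10 to Myotube12, a ratio of 0.927 with overlapping ranges. On summed normalized counts the ratio of these blocks was 1.31. The protein genes with their copies took 0.872% to 1.03% in Myotube1 to Myotube3, 1.73% to 2.18% in Myotube4 to Myotube6, 1.13% to 1.20% in Myotube7 to Myotube9 and 1.34% to 1.45% in Myotube10 to Myotube12. For these the ratio of the last block to Myotube7 to Myotube9 was 1.18 on shares and 1.68 on normalized counts. Shares of all reads also move with the other very abundant RNAs: Gm42418, a non-coding gene, took 39.9% to 43.7% in Myotube1 to Myotube3 and 1.33% to 34.8% in the others. ENSMUSG00000045999, which has no symbol in GENCODE M21, took 0.436% to 42.3% over all libraries. Reads on the ribosomal RNA genes per read on a protein gene or its copy do not depend on the library total. This ratio was 10.4 to 12.7 in Myotube1 to Myotube3, 8.70 to 10.03 in Myotube4 to Myotube6, 16.5 to 16.9 in Myotube7 to Myotube9 and 12.5 to 13.5 in Myotube10 to Myotube12. Within each title set it was lower in the labelled knockout, and within each label it was higher in the later titles, without overlap in any of these 4 pairs of blocks. The ratio of mt-Rnr2 to mt-Rnr1 reads ran from 2.04 in Myotube10 to 3.03 in Myotube5 and did not separate the blocks.

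**Figure D5:**
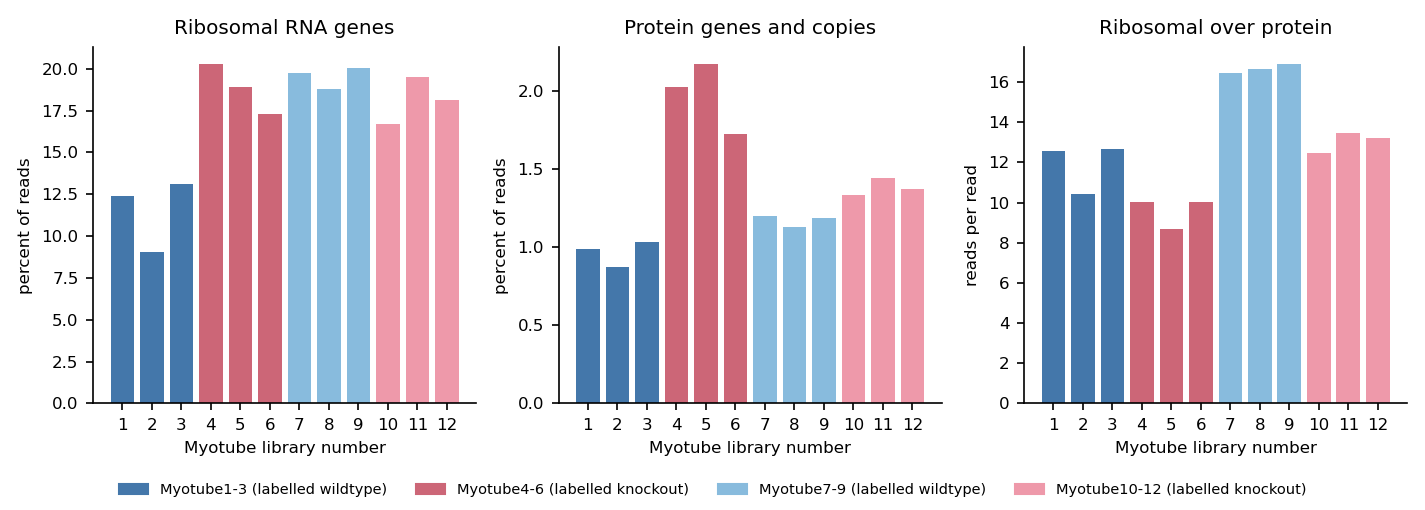
Bars give, for Myotube libraries 1 to 12 coloured by block, the percent of reads on the ribosomal RNA genes (left), the percent on the protein genes and their nuclear copies (middle) and the ratio of the former to the latter (right). Myotube7 to Myotube9 have the highest ratio, 16.5 to 16.9, and Myotube4 to Myotube6 the lowest, 8.70 to 10.03.

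Levels of different genes were compared per kilobase of annotated length, on the sums. No correction for fragment length was made. Its effect on the rank of short genes, such as mt-Atp8 (204 bases), mt-Nd4l (297) and mt-Nd3 (348), was not tested. In Myotube1 to Myotube3 mt-Rnr2 stood at 517186 ± 95804 (SD, n = 3) normalized counts per kilobase and mt-Rnr1 at 369188 ± 96924, which overlap in range. The protein genes followed, led in every block by mt-Co1, at 28742 ± 2182 in Myotube1 to Myotube3. mt-Co3 (14263 ± 1797) and mt-Co2 (14132 ± 2136) came next there, less than their spread apart, then mt-Atp6 (10034 ± 1921). mt-Nd1 (5905 ± 1343), mt-Cytb (5036 ± 645) and mt-Atp8 (4291 ± 1068) overlap in range, as do mt-Nd4 (3106 ± 280) and mt-Nd2 (3000 ± 395). mt-Nd5 (2479 ± 170), mt-Nd3 (1960.3 ± 923.6) and mt-Nd4l (1845 ± 409) ranked below these, and mt-Nd6 was lowest at 676 ± 144. In Myotube7 to Myotube9 the order differed: mt-Co2 (16929 ± 704) lay above mt-Co3 (11204 ± 209) without overlap, mt-Nd1 (3230 ± 176) lay below mt-Cytb (4298 ± 405), and mt-Nd3 (828 ± 65) ranked level with mt-Nd6 (873 ± 244).

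Nuclear genes listed for mitochondrial DNA, RNA or translation were counted in the same contrast of the labels. In that contrast 10.2% of all genes tested were higher and 9.07% lower. Of 29 tested genes listed for mitochondrial transcription and its regulation, 1 was higher and 6 lower in the labelled knockout, with a median log2 difference of -0.04. This list also holds genes of mitochondrial DNA replication, and the 1 higher gene, Polg2, is among these. Tfam, which packages mitochondrial DNA and starts its transcription, had medians of 161 normalized counts in the libraries labelled wildtype (116 to 246) and 106 in those labelled knockout (72.1 to 131), and fell by 0.73 (SE 0.19, adjusted p = 0.0160). Polrmt, the mitochondrial RNA polymerase, did not pass, at 0.01 (SE 0.14, adjusted p = 0.975). Ppargc1a, a coactivator of mitochondrial biogenesis, had medians of 50.8 (36.4 to 122) and 10.6 (3.73 to 25.4) and fell by 2.27 (SE 0.41), its relative Ppargc1b fell by 1.07 (SE 0.24), and the termination factor Mterf2 by 1.46 (SE 0.34). Polg2, the accessory subunit of the mitochondrial DNA polymerase, rose by 1.36 (SE 0.34).

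Of 48 genes of mitochondrial RNA processing, modification and turnover, 3 were higher and 4 lower, set against the same 10.2% and 9.07%, as are the counts of the lists that follow. Nsun4, a ribosomal RNA methyltransferase, rose by 0.90, Ptcd3, a protein of the mitochondrial ribosome, by 0.64, and Hsd17b10, a subunit of the enzyme that cuts transfer RNA 5′ ends, by 0.46. Fastkd1, a mitochondrial RNA-binding protein, fell by 1.52, the ribosomal RNA methyltransferase Mettl15 by 1.08, and the helicase Ddx28 by 0.71. Of 17 genes listed as translation factors, 3 rose: the elongation factors Tufm by 0.52 and Gfm1 by 0.38, and Cox14, an assembly factor of complex IV, by 0.44. Mss51, named after a yeast activator of mitochondrial translation, fell by 3.07, from a median of 22.0 normalized counts to 2.08. Of 22 genes listed with the aminoacyl-tRNA synthetases, not all of them synthetases, Kars, for lysine, rose by 0.33 and Rars2, for arginine, fell by 0.56. Lars2, which attaches leucine, ran from 30516 to 575601 normalized counts and did not pass (-1.42, SE 0.83, adjusted p = 0.273). It is 1 of the 8 very abundant genes, with 0.272% to 5.7% of reads, and was highest in Myotube1 to Myotube3. Whether reads on this row come from Lars2 messenger RNA was not tested.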

How the data were processed

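RNA was measured in 12 stranded total RNA libraries of mouse primary myotubes, per the labels' protocols, with 1 column each over 20201 genes. The authors deposited a signal, gene counts scaled per library. Trimmomatic 0.33, STAR 2.5.2, RSEM 1.3.3, DESeq2 and genome build mm10 stand in the submitters' processing notes, and which annotation was counted on is not given there. RSEM divides reads that fit several genes by estimate, which matters for genes with near-identical copies. Dividing each column by the value of a single read gave whole reads for 100% of values (tolerance 1e-06 reads). All 12 columns matched a sample title. Groups came from the genotype and treatment labels; replicate numbers follow accession order. Libraries all differed by more than sampling noise (lowest chi-square per degree of freedom 5.04).

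Identifiers were named from GENCODE M21 (GRCm38), 19970 of 20201. Nuclear copies were sought with BLAST 2.17.0 among its transcripts, not in the whole genome. Differences were tested by limma 3.58.1 (trended prior, two-sided) on log2(normalized count + 1), with Benjamini-Hochberg adjustment over the 12553 genes whose mean reached 10 (all 15 members; 7648 genes fell below). For genes with few reads a log2(value + 1) difference is too small. The label contrast used 2 group means, and the other contrasts the means of the 4 blocks of 3 libraries. Fits on sums of genes and copies covered 12547 genes. The steps were tested on simulated data. Alternatives were other pseudocounts (0.5 and 10), filters, scalings, edgeR 4.0.16 and DESeq2 1.42.0 on the recovered reads, an exact permutation test over 924 relabellings and each library left out. Adding up the copies together with nuclear scaling, and leaving out libraries on the sums, were chosen after seeing the data. The members and lists were chosen with earlier results of these data known. Named genes were all members, their copies, Tfam, Polrmt, Lars2 and up to 3 rises and 3 falls per list. R 4.3.3 and Python 3.11.15 were used. Floors cover counting error only. Standard errors come from the limma fits and SDs from the libraries of a block, so both reflect spread among libraries.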

Additional observations from a re-analysis of the deposited data

Results flagged for a closer look

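mt-Co3 in Myotube7, at 1981 normalized counts, lay far from the other libraries labelled wildtype, the next highest of which was at 511 and the lowest at 0. Its gap to the nearest of the others was 0.742 of the whole range, above the critical value of 0.625 for 6 libraries. Of 44 such groups looked at, this was the only one past that value, and chance alone would pass about 1 in 20.

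mt-Co2 differed between the title sets in its contrast of labelled knockout and labelled wildtype, by -7.58 on the log2 scale (SE 0.72, limma adjusted p = 0.00170). It was at 0 in Myotube1 to Myotube3 and above 0 in all other libraries. Summed with its nuclear copy Gm28661, the difference was -0.31 (adjusted p = 0.581).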

How the results depend on the processing

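Of 2130 values of single members under an alternative, 1987 kept their direction and their side of the threshold. With quantile normalization, which leaves little beyond rank for so abundant a gene, mt-Rnr2 turned to -0.22 in the label contrast. Summed with copies, mt-Co3 and mt-Nd4l turned from higher to lower between blocks: to -0.34 and -0.46 for the labelled wildtype and -0.49 and -0.69 for the labelled knockout, and with nuclear scaling as well to -0.44 and -0.56, and -0.58 and -0.79. On the sums the members called in the knockout block contrast went from 5 to 9, and to 10 with nuclear scaling. Genes called went from 2416 to 3785 with the title set as a covariate, and to 1155 within Myotube1 to Myotube6 fitted on those 6 libraries alone. The difference between the title sets, 1 gene and 1 member by limma, gave 0 genes and 0 members with a pseudocount of 10, with quantile normalization, by edgeR, on the sums, and on the sums with nuclear scaling, against 31 genes by DESeq2. Leaving out 1 library gave 1190 (without Myotube7) to 3082 (without Myotube2) genes called within Myotube7 to Myotube12, 3 to 8 members in the wildtype block contrast and 2 to 6 in the knockout block contrast, 3 to 11 and 5 to 10 of these on the sums, and 1 to 4 genes for the difference between the sets. Without a filter on low values both ribosomal RNAs lost their call (adjusted p = 0.228 and 0.398), and with quantile normalization mt-Nd1 (0.151) and mt-Nd2 (0.133) did. The cause was not tested. No paired analysis was possible because the replicate numbers follow accession order and no label pairs libraries. A floor of 3 reads corresponds to 2.12 to 5.85 normalized counts.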
